A study of Mus musculus with 3 samples.

Results

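The microRNA miR-22 was followed on arrays of mouse T-lineage cells through the probe named hsa-miR-22. This is 1 of 276 probes on the array whose name matches a mouse microRNA (miRNA) gene, and 1 of 1491 probes in all. It was chosen from measured values of these same arrays, namely its lower signal in the tumor cells only. Its differences between the groups are therefore given as a description, with no test.

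The series, made to profile T-cell acute lymphoblastic leukaemia (T-ALL), holds 3 samples of CD4+CD8+ cells from Balb/c mice, each in a group of its own and on 1 array. The groups were normal thymocytes (control), non-malignant cells expressing ICN1, and tumor cells expressing ICN1, where ICN1 is the intracellular, constantly active part of the receptor NOTCH1. The labels do not give the age of the mice, how ICN1 was introduced, or whether animals were pooled, so differences in these go with the groups and cannot be told apart from them. The names of the deposited scanner tables carry a time in weeks that differs between the 3 samples. The labels do not say what it counts, so it was not used, and time cannot be told apart from group. The RNA of each sample carried the dye Hy3 and was hybridised to an Exiqon LNA array beside a pool of equal amounts of the 3 RNAs, labelled with Hy5. With 1 array per group no difference has a replicate check, and errors below are over the 4 spots of the probe on each array, which cover spot error only.

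MiRNAs are short RNAs that pair through their seed, bases 2 to 8 from the 5′ end, with sites in messenger RNAs and lower the output of those messengers. MiR-22 is made in many tissues, blood cells among them. Its known targets include TET2, an enzyme that oxidises 5-methylcytosine. MYC, a direct target gene of NOTCH1 in T-ALL, is known to repress a broad set of miRNA genes, and miR-22 has been placed in that set.

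The mouse sequences of miR-22 are shown because the seed defines the family and because a probe on an array can only be read against the RNAs that resemble its target. They come from RefSeq on GRCm38.p6 and are written 5′ to 3′, with the seed in capitals. The sequence of the probe itself was not used here, so the probe was tied to these RNAs by name alone.

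mmu-miR-22-3p, chr11:75463772-75463793, plus strand: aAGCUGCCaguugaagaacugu

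mmu-miR-22-5p, chr11:75463734-75463755, plus strand: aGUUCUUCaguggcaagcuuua

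The hairpin from which both arms are cut is 95 bases long and lies at chr11:75463716-75463810 on the plus strand, within Mir22hg, a long non-coding RNA gene that serves as its host. In the hairpin the 3p arm is in capitals.

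Mir22 hairpin: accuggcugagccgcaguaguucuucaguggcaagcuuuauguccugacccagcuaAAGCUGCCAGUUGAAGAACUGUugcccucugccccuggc

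No other miRNA gene lay within 10000 bases of Mir22 (0 found), so it has no cluster partner on the array, while the coding genes Wdr81 and Tlcd2 lay within that distance. Of 1738 mature mouse miRNA entries, with 1674 distinct sequences, 1 held the seed of miR-22-3p, which was miR-22-3p itself. The mouse miRNA closest to it over its length was miR-3966, which matched 19 of 21 aligned bases. In the sequence of miR-3966 the bases that differ from miR-22-3p are in capitals.

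mmu-miR-3966, chr10:97423493-97423513, plus strand: agcugccagCugUagaacugu

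Counted from the 5′ end of miR-22-3p, these are the substitutions U11C and A14U. The next closest sequence, miR-7671-3p, matched 14 bases. MiR-3966 is not analysed here as a separate signal, and whether it reached the miR-22 probe was not tested.

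MiR-22 was clearly above background in the control and non-malignant ICN1 cells, at nearly the same brightness in both, and much dimmer in the ICN1 tumor cells. In control cells the Hy3 signal of its 4 spots was 274.4, 271.2, 274.0 and 271.2 intensity units, with a mean of 272.7 ± 1.74 (SD over 4 spots). On the non-malignant ICN1 array the 4 spots read 292.1, 281.8, 270.4 and 263.9 units, with a mean of 277.1 ± 12.4. On the ICN1 tumor array they read 105.0, 101.9, 100.5 and 101.3 units, with a mean of 102.2 ± 1.96. The spots of the control and non-malignant ICN1 arrays overlapped, and all 4 tumor spots lay far below both.

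**Figure D1:**
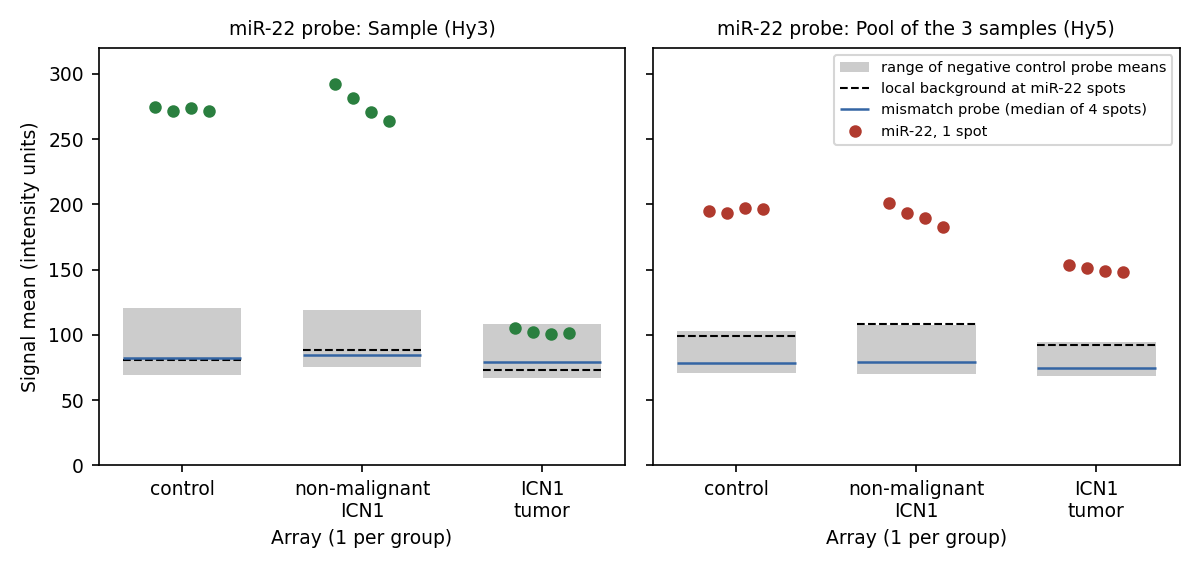
Signal of the 4 miR-22 spots on each array in Hy3 (the sample) and Hy5 (the pool), in intensity units, not normalized. Grey bands are the range of negative control probe means, dashed lines the local background and blue lines the mismatch probe median. The tumor spots sit near 102 units in Hy3 against about 273 and 277 on the other arrays, while the pool differs less, from about 150.5 to 195.4 units.

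The pool is the same RNA on every array, so its Hy5 signal shows how far the arrays differ for technical reasons. At the miR-22 spots the pool read 194.6, 193.5, 197.5 and 196.3 units beside control and 200.8, 193.3, 189.4 and 182.8 units beside non-malignant ICN1. On the ICN1 tumor array it read 153.6, 151.0, 149.0 and 148.4 units. The pool was thus also lower on the tumor array. After background correction but before normalization, its log2 difference from control was -0.40, against -1.53 in Hy3. On that scale the pool differed by -0.07 and the sample by -0.03 between non-malignant ICN1 and control. The uncorrected Hy3 mean was slightly higher in non-malignant ICN1 than in control. Over the 146 mouse miRNA probes detected on all 3 arrays, the median log2 difference of tumor from control on that scale was -0.55 in Hy3 and -0.19 in Hy5. The tumor array was therefore dimmer at the median in both dyes.

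After background correction and loess normalization, the log2 ratio of sample over pool at miR-22 was 0.46 ± 0.03 in control, 0.62 ± 0.03 in non-malignant ICN1 and -0.70 ± 0.03 in ICN1 tumor cells (SD over 4 spots). In linear terms these were 1.38, 1.53 and 0.617 times the pool. The order of the levels was therefore non-malignant ICN1, control and tumor, and the spots of these ratios did not overlap between any pair of arrays. The first place is not firm, since in the Hy3 signal itself the spots of control and non-malignant ICN1 overlapped. Without normalization the log2 ratio of non-malignant ICN1 was above that of control by 0.041, against 0.16 with it. The 3 linear ratios averaged 1.18, against a median of 1.06 over the 146 probes and a range from 0.812 to 1.48 between the 5th and 95th percentiles. Since the pool holds equal amounts of the samples, this mean describes how well ratio and pool match at a probe.

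In ICN1 tumor cells miR-22 was 2.23-fold lower than in control cells, a log2 difference of -1.16 with a standard error of 0.02 over spots. All 4 spots gave nearly the same difference, from -1.18 to -1.13. Of the 177 mouse miRNA probes detected on at least 1 of these arrays, 26 were lower in tumor by 2-fold or more (14.7%) and 1 was higher by as much (0.565%), with a median difference of -0.11. MiR-22 was number 20 from the lowest, a place that holds for this processing only: its tumor signal lay in the range of the negative control probes, and 3 of 14 other settings, at -0.59, -0.75 and -0.83, put it short of 2-fold. Its neighbours in that order were miR-106b, at a log2 difference of -1.18, and miR-29a, at -1.13. Around the 2-fold line, miR-144 at -1.02 and miR-128b at -1.01 were just inside and miR-15a and let-7i, both at -0.97, just outside.

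Against the non-malignant ICN1 cells, which also express ICN1, the tumor cells had 2.48-fold less miR-22 signal, a log2 difference of -1.31 with a standard error of 0.02. The 4 spots ranged from -1.34 to -1.28. Here 17 of 174 probes were at least 2-fold lower (9.77%) and 1 was as much higher (0.575%), the median difference was -0.08, and miR-22 was number 12 from the lowest. MiR-142-5p stood next to it at -1.33 on the lower side and miR-9* at -1.18 on the other. Just inside the 2-fold line were miR-9 at -1.07 and miR-24 at -1.05, and just outside it miR-146a at -0.96 and miR-29a at -0.94.

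Non-malignant ICN1 and control cells, by contrast, differed little at miR-22. The log2 difference of non-malignant ICN1 from control was 0.16 with a standard error of 0.02, or 1.12-fold higher, and the 4 spots ranged from 0.13 to 0.17. Of 167 probes, 3 lay 2-fold or more below control (1.8%) and 7 as far above it (4.19%), with a median of -0.03. MiR-22 was number 19 from the highest, between miR-433 at 0.15 and miR-148b at 0.19. The difference exceeded the spot error, but there is no second array to set it against. In background-corrected Hy3 alone, before centring, it was -0.03. Both ICN1 comparisons with control share the control array, and both with tumor share the tumor array, so the 3 differences are not independent of each other.

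MiR-22 in tumor cells lay close to the background of the array, and the size of the difference varied with the processing. Its 4 tumor spots passed the detection limit, the local background median plus 2 background standard deviations, which stood between 91.1 and 96.3 units there. On that array, however, the 8 negative control probes had mean Hy3 signals from 67.1 to 108 units, and 1 of the 8 was above all 4 miR-22 spots. On the control and non-malignant ICN1 arrays these probes reached 120.5 and 119 units, and 0 of 8 were above the miR-22 spots.

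Net of local background, the Hy3 signal of miR-22 was 192 units in control, 189 in non-malignant ICN1 and 29.4 in tumor cells, a ratio of 6.53-fold between control and tumor without further normalization. Net of the median of the negative control spots it was 183, 185 and 14.5 units, a ratio of 12.6-fold. The pool in Hy5, treated the same way, differed 1.66-fold and 1.53-fold between those arrays. These ratios leave out both the pool and the normalization, so they are not set against the 2.23-fold above. With the pool kept, subtracting local background gave a log2 difference of tumor from control of -1.15, and subtracting the negative control signal -2.11. Both subtractions used median centring on mouse miRNA probes in place of loess, so they changed background and normalization together. The same centring after normexp gave -0.59. With pool and loess kept, normexp with offset 10 gave -1.65 and no background correction -1.04, against the -1.16 reported. With the tumor signal in the range of the negative control probes, these arrays do not fix how much miR-22 remained.

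The array also carries a mismatch probe for miR-22, which differs from the miR-22 probe so as to bind its target less well. Its median Hy3 signal was 82.5, 84.8 and 79.2 units on the control, non-malignant ICN1 and tumor arrays, and it was not detected on any of them. That was 0.303, 0.306 and 0.775 of the miR-22 signal. The probe pair was therefore well separated in control and non-malignant ICN1 cells and only slightly separated in tumor cells. A single control spot of the mismatch probe stood apart at 174.8 units in Hy3, where the pool also read 206.7 units.

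Other probes of like brightness were also lower on the tumor array, though most by less than miR-22. Only probes detected on all 3 arrays were compared, so any that fell below detection in tumor cells were left out. Among the probes kept, 28 other mouse miRNA probes lay within 0.5 log2 units of miR-22 in background-corrected control Hy3 signal. Their median log2 difference of tumor from control was -0.86 in Hy3, against -1.53 for miR-22, and -0.31 in the normalized ratio, against -1.16. In Hy3 the 28 ranged from -1.54 to 0.40 and 1 of them was further down than miR-22. In the ratio, 1 of them was also further down, and with miR-22 counted in, 2 of 29 were at least 2-fold lower (6.9%). Between tumor and non-malignant ICN1 cells the median of the 28 was -0.50 in Hy3 and -0.28 in the ratio, with 2 probes further down in Hy3 and 1 in the ratio. Between non-malignant ICN1 and control it was -0.17 in Hy3 and -0.05 in the ratio, and 0 of 29 were at least 2-fold lower (0.0%).

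**Figure D2:**
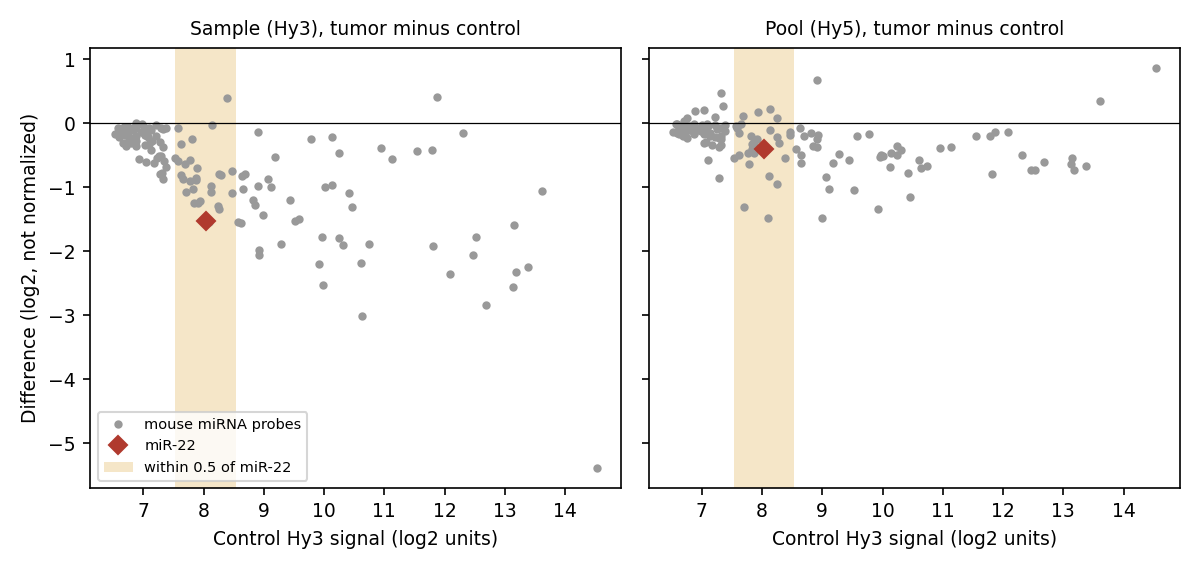
Log2 difference in Hy3 signal, after background correction but before normalization, against the control Hy3 signal of each mouse miRNA probe detected on all 3 arrays. MiR-22 and the 28 probes of like brightness are marked. In ICN1 tumor cells the 28 probes have a median of -0.86 and miR-22 lies near their lower edge at -1.53.

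Of the 146 probes detected on all 3 arrays, 10 were lower in tumor cells than in both other groups by 2-fold or more. Besides miR-22 these were miR-451, miR-211, miR-16, miR-15b, miR-142-5p, miR-24, miR-142-3p, miR-23b and miR-144. The other 9 share no seed-defined family with miR-22, since no other mouse miRNA has its seed. In 2 of the 10, miR-22 and miR-144, the non-malignant ICN1 cells were above control, at log2 differences of 0.16 and 0.72, and in the remaining probes they were below it.

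**Figure D3:**
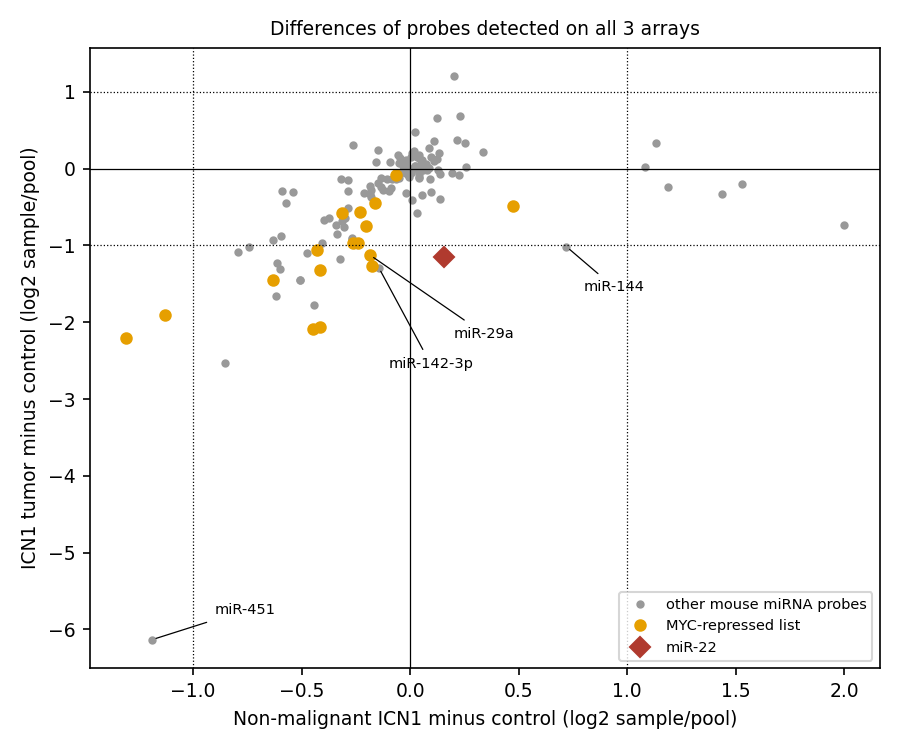
Log2 difference of ICN1 tumor from control against that of non-malignant ICN1 from control, for the mouse miRNA probes detected on all 3 arrays, with 2-fold lines dotted. Both axes use the same control array. MiR-22 lies at 0.16 and -1.16, to the right of most members of the MYC-repressed list.

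The probes with the pair of differences (non-malignant ICN1 from control, tumor from control) nearest to that of miR-22, out of 145, were miR-142-3p, miR-29a, miR-23b, miR-15a and miR-30a-5p. Their distances were 0.33, 0.34, 0.35, 0.44 and 0.46 log2 units, over 3 arrays that all pairs share. All 5 were below control in non-malignant ICN1 cells, where miR-22 was above it. For miR-142-3p, an abundant miRNA of blood cells, Hy3 was 12530 units in control, 10110 in non-malignant ICN1 and 6059 in tumor cells, with log2 ratio differences from control of -0.14 and -1.29. For miR-29a, which is known to target TET2 and DNA methyltransferases, the Hy3 signals were 1224, 1029 and 363 units and the differences -0.18 and -1.13. For miR-23b, a relative of miR-23a, they were 625, 508 and 174 units and the differences -0.18 and -1.26. These signals stood above the negative control range on every array, unlike that of miR-22 in tumor cells. The likeness is not firm, because 0 of the 5 stayed among the nearest when Hy3 was used without the pool.

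The mature sequences of a pair of these probes are shown to set their seeds, in capitals, beside that of miR-22-3p above. Each matched miR-22-3p at 8 bases in the best alignment, and their seeds differ from it.

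mmu-miR-142a-3p, chr11:87756903-87756925, plus strand: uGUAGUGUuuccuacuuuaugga

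mmu-miR-29a-3p, chr6:31062673-31062694, minus strand: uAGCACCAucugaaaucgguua

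The miRNAs that MYC is known to repress were read beside miR-22, which the textbook list also holds and which is left out of the counts below. In tumor against control cells, 9 of 19 other members were at least 2-fold lower (47.4%, against 14.7% of all probes) and all 19 were below 0, with a median log2 difference of -0.97 against -0.11 over all probes. The lowest were miR-26a at -2.21, miR-16 at -2.08, miR-15b at -2.06 and miR-23a at -1.90. MiR-15b and miR-16 are known to restrain cell-cycle genes and BCL2. The others past 2-fold were miR-26b at -1.45, miR-30b at -1.32 and miR-23b at -1.26, followed by miR-30c at -1.06 and miR-29a at -1.13. With a value of -1.16, miR-22 had 7 members below it and 12 above. The 9 members past 2-fold were bright in control cells. Their background-corrected Hy3 signal there ran from 9.28 to 12.69 log2 units, against 8.03 for miR-22. The shares over all probes, here and for the lists below, cover probes of every brightness and were not matched to a list.

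In non-malignant ICN1 against control cells, 17 of 18 other members of that list were below 0, and 2 of 18 were at least 2-fold lower (11.1%, against 1.8% of all probes), which were miR-26a at -1.31 and miR-23a at -1.13. The median was -0.25 against -0.03 over all probes. MiR-22, at 0.16, and miR-146a, at 0.47, were the members above 0. Between tumor and non-malignant ICN1 cells, 3 of 19 were at least 2-fold lower (15.8%, against 9.77% of all probes), namely miR-15b at -1.65, miR-16 at -1.64 and miR-23b at -1.08, with a median of -0.73 against -0.08. MiR-22, at -1.31, was lower there than all but 2 of them. The summed Hy3 signal of the list was 21980, 14550 and 5100 units in control, non-malignant ICN1 and tumor cells. These sums include miR-22 and were taken without background subtraction or normalization. The list was chosen with earlier results of these arrays known, so its direction is not independent evidence.

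Among miRNAs known to repress TET2, 3 of 7 others were at least 2-fold lower in tumor than in control cells, namely miR-26a, miR-26b and miR-29a, against 14.7% of all probes. The median was -0.45, against -0.11 over all probes. In non-malignant ICN1 against control cells 1 of 6 was, again miR-26a, against 1.8% of all probes, with a median of -0.17 against -0.03. Between tumor and non-malignant ICN1 cells, 0 of 7 reached 2-fold, against 9.77% of all probes, and the median was -0.29 against -0.08. The lists overlap, since the miR-26 and miR-29 probes stand in both the MYC and the TET2 lists. No messenger RNA was measured on these arrays, and levels of TET2 or MYC are not analysed here.

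Markers of other blood cells also differed between the samples. The 3 erythroid markers, miR-451, miR-144 and miR-486, had a summed Hy3 signal of 24230 units in control, 11990 in non-malignant ICN1 and 848 in tumor cells. In control cells miR-451 made up most of that sum. Background-corrected Hy3 there was 14.53 log2 units for miR-451, 7.31 for miR-144 and 8.47 for miR-486. In tumor against control cells the log2 differences of the 3 markers, in that order, were -6.13, -1.02 and -0.76. Of these, 2 of 3 were at least 2-fold lower, against 14.7% of all probes. In non-malignant ICN1 against control cells they were -1.19, 0.72 and -0.31 in the same order, so 2 of 3 were below 0, where miR-22 was at 0.16. The part of erythroid RNA in the miR-22 signal was not tested. In samples of many cells, fewer cells of a type and less RNA per cell cannot be told apart.

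Of the 2 myeloid markers, miR-223 was detected and miR-511 was not. MiR-223 was higher in non-malignant ICN1 than in control cells by 1.19 log2 units and lower in tumor than in non-malignant ICN1 cells, at -1.43. Its share in the difference of miR-22 between these samples was not tested. MiR-150, a marker of mature lymphocytes, was dim throughout at 124, 111 and 90.9 units and not detected in tumor cells.

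None of the detected stromal, epithelial, or muscle and liver markers (0 in each list) reached 2-fold in tumor against control cells. Of the stromal markers 2 of 5 were detected, with a median of -0.01 in tumor against control cells, and of the epithelial markers 3 of 7, with a median of 0.21. The 3 muscle and liver markers detected had a median of -0.05. The miR-142 arms, found across blood cells, were bright on every array, with both at least 2-fold lower in tumor than in control cells, against 14.7% of all probes, and a median of -1.53. The miR-181 family, which is abundant in CD4+CD8+ thymocytes, was detected at 4 of 4 probes in control, 3 of 4 in non-malignant ICN1 and 4 of 4 in tumor cells. MiR-181d had no usable spot on the non-malignant ICN1 array. The summed Hy3 signal of miR-181a, miR-181b and miR-181c was 756.5, 588.5 and 485 units. In tumor against control cells 1 of 4 was at least 2-fold lower, miR-181a at -1.24, while miR-181b was at -0.64, miR-181d at -0.05 and miR-181c at 0.15, with a median of -0.34. These probes do not measure CD4 or CD8, so the labelled cell type could not be checked by its defining markers.

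The direction of miR-22 in tumor cells held under each of 14 other ways of processing that were run. Its log2 difference of tumor from control ranged from -2.11 to -0.59 and was below 0 in all 14, and 11 kept it at 2-fold or more. The difference of tumor from non-malignant ICN1 cells ranged from -2.54 to -0.82, below 0 in all 14 and at 2-fold or more in 12. The difference of non-malignant ICN1 from control ranged from -0.03 to 0.59, reached 2-fold in 0 of 14 and fell below 0 in 1.

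**Figure D4:**
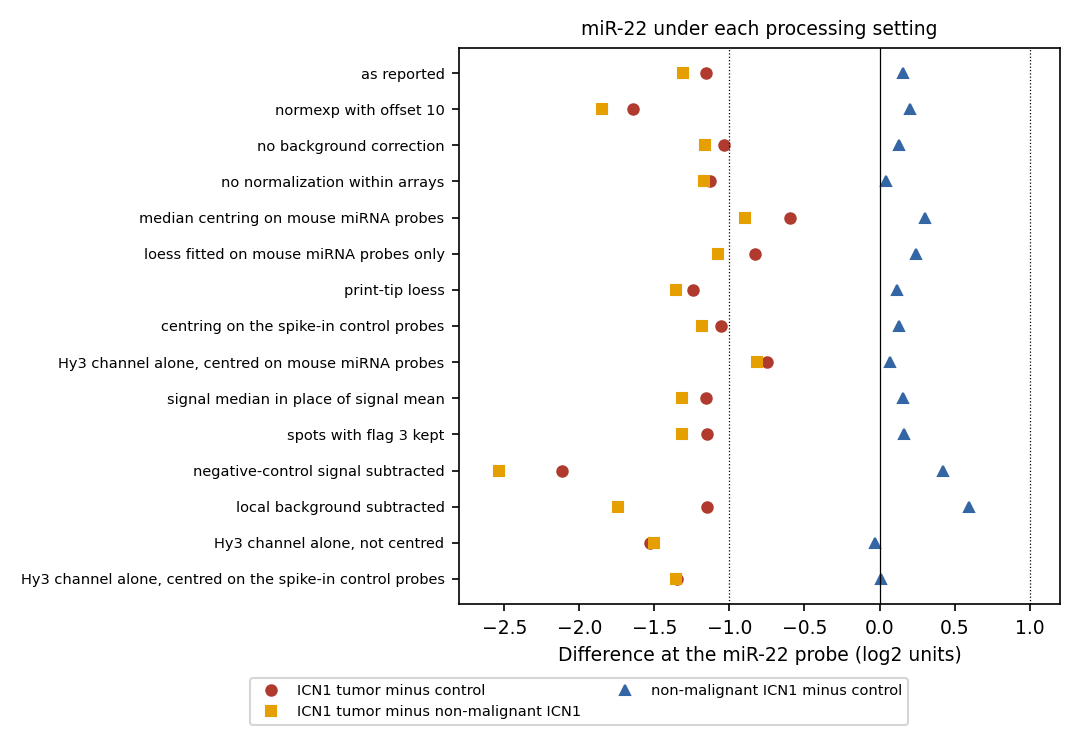
Log2 difference at the miR-22 probe for each comparison as reported and under each of 14 other ways of processing, with 2-fold lines dotted. Tumor against control and tumor against non-malignant ICN1 stay below 0 throughout, while non-malignant ICN1 against control stays between -0.03 and 0.59.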

How the data were processed

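The deposited scanner tables give signal mean, background median and background SD per spot and dye as intensity on a linear scale, not normalized, and a quality flag, which is a score, per the file headers. No source used here names the scanner or its software. Arrays had 6720 spots. Mouse miRNA probes were detected in numbers from 155 to 168 of 276 per array. Spots with flag 3 were left out (51 to 125 per array), which removed none of miR-22. The deposited table of processed values was not used, because 1 of its 345 row numbers occurred in the scanner tables. Background was corrected by normexp (offset 50) and ratios by global loess (span 0.3) in limma 3.58.1 under R 4.3.3, giving mismatch and control spots weight 0. This was tested on simulated data, but recovery of a lowered signal was required only of probes brighter than miR-22. Figures used Python 3.11.15 and matplotlib 3.10.9. A probe was detected where at least 50% of its usable spots exceeded background median plus 2 SD in Hy3, and entered a comparison if detected on 1 of its arrays. No test was possible with 1 array per group. The probes carry human names, and mouse genes were matched by name to RefSeq (GRCm38.p6). Named beside miR-22 are its mismatch probe, its neighbours in each order, the 5 probes of nearest pattern and list members at 2-fold. MiR-22 and all lists were chosen with earlier results of these data known, and a further list is not reported here. Alternatives changed background correction, normalization, channel, signal summary, flags and spots. The number of arrays limits the precision.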

Additional observations from a re-analysis of the deposited data

How the results depend on the processing

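The size of the miR-22 difference depended on the normalization, its direction in tumor cells did not, over the 14 settings run. For miR-22 in tumor against control (-1.16 as reported), centring on the median of the mouse probes gave -0.59, loess on mouse probes only -0.83 and Hy3 alone, centred, -0.75, all short of 2-fold. Normexp with offset 10 gave -1.65, no background correction -1.04, print-tip loess -1.24 and spike-in centring -1.05. Against non-malignant ICN1 (-1.31), median centring gave -0.90 and Hy3 alone -0.82, both short of 2-fold, while the others in that order gave -1.85, -1.16, -1.36 and -1.18, no normalization -1.17 and loess on mouse probes -1.08. For non-malignant ICN1 against control (0.16) the values were 0.21 with offset 10, 0.041 without normalization, 0.30 with median centring, 0.24 with loess on mouse probes and 0.070 with Hy3 alone. Chosen after seeing the data were 4 settings: subtracting negative controls gave -2.11, -2.54 and 0.42 for the 3 comparisons in this order. Subtracting local background gave -1.15 for tumor against control, -1.74 for tumor against non-malignant ICN1 and 0.59 for non-malignant ICN1 against control. Both subtractions were followed by median centring on the mouse probes, not by loess. Hy3 not centred gave -1.53, -1.501 and -0.030, the last turned in sign, and Hy3 centred on spike-ins -1.35 and 0.01 for the comparisons with control. Leaving out 1 of the 4 spots moved the 3 comparisons from -1.16 to -1.15, from -1.32 to -1.30 and from 0.15 to 0.16.

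Probes at least 2-fold lower in tumor than in control numbered 26, but 9 with loess on mouse probes and 11 with median centring. Against non-malignant ICN1 they numbered 17, but 11 with median centring and 11 with Hy3 alone, and for non-malignant ICN1 against control 3, but 1 with loess on mouse probes. The median of the MYC-repressed list stayed below 0 in each of the 10 settings run for it. In tumor against control it was -1.16 with offset 10, -0.92 without background correction, -1.21 without normalization, -0.67 with median centring, -0.54 with loess on mouse probes, -1.13 with spike-in centring, -0.56 with Hy3 alone and -1.06 with signal medians. Against non-malignant ICN1, in that order, it was -0.91, -0.68, -0.79, -0.51, -0.43, -0.79, -0.24 and -0.80. For non-malignant ICN1 against control it was -0.30 with offset 10, -0.30 without normalization, -0.037 with median centring, -0.14 with loess, -0.21 with spike-in centring and -0.36 with Hy3 alone. The causes were not tested. The tumor signal of miR-22 was within the range of the negative controls, which limits its precision. No paired analysis was possible because each group has 1 array.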
